A study of Pinus elliottii with 16 samples.

Results

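Wounded slash pine cambium that received no stimulant paste was compared between day 15 and day 5 after bark stripping. The comparison used the 8 control libraries of the 16 in the study, 4 from day 15 and 4 from day 5, chosen by their labels. Of the 8949 features in the deposited tables, 5405 reached a value of 10 in 4 or more of these 8 libraries and were tested. The other 3544 were not tested, 1419 of them listed at 0 in all 8. At the edge of this filter, 190 features passed with exactly 4 libraries at 10 or more, and 216 with exactly 3 did not pass.

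Slash pine (Pinus elliottii) is tapped commercially for resin. The trees were 16 years old and stood in a commercially tapped stand. Day 15 controls and day 5 controls alike had their bark stripped and got no paste, and tissue was taken slightly above the wound. The labels also state that the trees had been tapped every fortnight with a conventional stimulant paste in the year before, so the controls were untreated in this experiment but not free of earlier paste. Day after wounding and sampling date cannot be told apart. The paste groups, used below for values set beside the controls, had the same wound and a streak of paste with sulfuric acid and Ethrel, which releases the plant hormone ethylene.

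The vascular cambium is the sheet of dividing cells that forms wood on its inner side and phloem on its outer side. In pines, wounding is known to set off a response in which the tissue at and near the wound makes defensive compounds and, over the weeks that follow, the cambium can form additional resin ducts in the new wood. Resin itself is a mix of terpenes made in the cells that line such ducts. The labelled tissue could not be checked against its defining genes, because the files give feature identifiers without gene names or descriptions. For the same reason the features below carry no function, and only 2 that rose and 2 that fell are named. RNA came from whole tissue, so fewer cells of a type and less RNA per cell cannot be told apart.

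A value is the authors' scaled estimate of the fragments that came from a feature, so that 1 fragment is worth 0.688 to 1.56 units depending on the library. The 4 day 15 controls held 3323971 to 4798513 estimated fragments, and the 4 day 5 controls 4145890 to 5203943. The number of features above 0 averaged 6755 ± 152 at day 15 and 6687 ± 117 at day 5 (SD, n = 4 each; two-sided exact permutation p = 0.514, adjusted over 3 library measures p = 0.571). The 10 most abundant features of a library took 15.2% ± 5.18 of its signal at day 15 and 12.9% ± 1.92 at day 5 (SD, n = 4 each; exact permutation p = 0.571, adjusted p = 0.571). With 4 against 4 libraries such a test cannot go below 0.0286. Day 15 replicate 1 was the shallowest library, and 1 feature took 11.3% of its signal, against 2.86% to 5.64% for the top feature in each of the other 7 controls.

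The 4 day 15 libraries differed more among themselves, in the median, than the 4 day 5 libraries. The median SD of a feature's log2(value + 1) was 0.409 at day 15 and 0.347 at day 5. Correlations across features ran from 0.863 to 0.923 between day 15 libraries (6 pairs), from 0.922 to 0.944 between day 5 libraries (6 pairs), and from 0.819 to 0.947 between the days (16 pairs). Day 15 replicate 2 stood apart from its label: its mean correlation was 0.892 with the other day 15 libraries and 0.920 with the day 5 libraries. The other 7 controls were each closer to their own day. On the first principal component, which took 36.9% of the variance, day 15 replicates 1, 3 and 4 scored 61.8, 40.0 and 16.6. Day 15 replicate 2 scored -14, within the day 5 range of -45.9 to -12.6.

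Control libraries with the same replicate number deviated together on both days, although the labels do not say whether a number marks a tree. Values for the 4 numbered pairs are therefore given beside the unpaired test.

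Of the 5405 features, 68 changed between the days (1.26%; 4 libraries per day, limma with a Benjamini-Hochberg adjusted p below 0.05). At day 15, 32 of them were higher (0.592% of those tested) and 36 were lower (0.666%). In all 68 the 4 day 15 values lay wholly on 1 side of the 4 day 5 values, which also fixes their direction in every numbered pair. Among all features tested, 732 had no such overlap (13.5%), 335 higher (6.2%) and 397 lower (7.35%). An unadjusted p below 0.05 was reached by 1050 (19.4%), 493 higher (9.12%) and 557 lower (10.3%). Without regard to size or test, 50.9% of all features had a positive change, and 16.8% were higher and 17.0% lower at day 15 in all 4 pairs, overlapping features included. The last feature called had an adjusted p of 0.0479 and the first not called 0.0503.

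**Figure D1:**
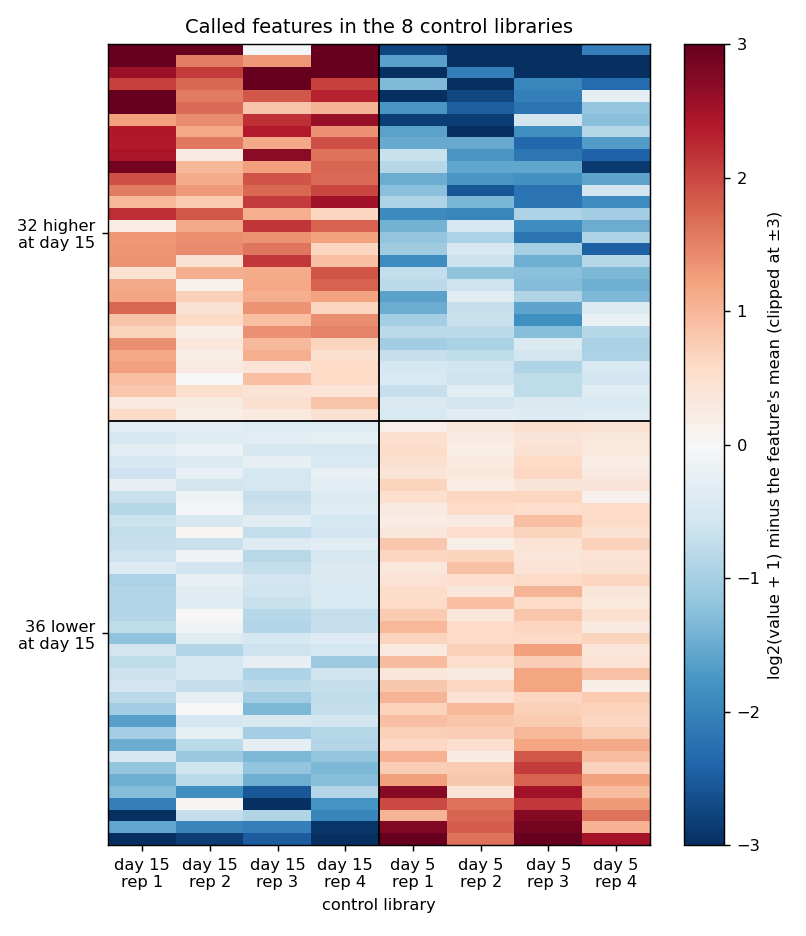
Colours give log2(value + 1) minus the mean of the feature over the 8 control libraries, clipped at 3 units either way, for the 32 features called higher (top) and the 36 called lower (bottom) at day 15; columns are libraries, day 15 on the left and day 5 on the right. Every called feature separates the days, and day 15 replicate 2 is the palest day 15 column among most of them.

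The number of calls turned on single libraries. It was 252 without day 15 replicate 2, 111 higher and 141 lower, and all 68 were among them; leaving out a library that resembles the other day itself favours a difference. Without day 15 replicates 1, 3 and 4 in turn it was 20, 7 and 5. Without day 5 replicates 1, 2, 3 and 4 in turn it was 8, 20, 9 and 14. A fit of all 16 libraries, whose error also takes in the spread of the paste libraries, called 0 of the 5405 (limma; 544 at an unadjusted p below 0.05, 10.1%). With the replicate number as a block, limma called 56, 28 higher and 28 lower, of which 27 were among the 68: 48.2% of the blocked list and 39.7% of the unblocked one. The largest blocked adjusted p among the 68 was 0.0742. With each library scaled to its total, 54 features were called and the split was 37 higher and 17 lower. Of these 54, 41 were among the 68.

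The features that rose were mostly scarce at day 5. The 32 had a median change of 2.63 on the log2 scale, about 6.19-fold, and ranged from 1.69-fold to 89.3-fold. Over all features tested the median change was 0.01. Of the 32, 30 rose at least 2-fold, 23 at least 4-fold, 14 at least 8-fold and 5 at least 16-fold. Over all features, in either direction, 13.7% differed at least 2-fold and 3.53% at least 4-fold. Their group mean had a median of 251 at day 15 and 23.0 at day 5, against 203 and 200 over all features tested. In 21 of the 32 the day 5 mean was below 50, and in 7 it was below 10, against 1357 and 143 of all 5405. Choosing features that rose favours low day 5 values. Over all 8 controls the median of their mean log2(value + 1) was 5.98, against 7.56 over all features tested. Per library, the median of the 32 values was 233, 147, 179 and 186 in day 15 replicates 1 to 4, and 23.4, 25.4, 19.5 and 20.9 in day 5 replicates 1 to 4. The 32 were chosen on these same libraries and each separates the days, so these medians had to separate too. Replicate 2 was the lowest of the 4 day 15 libraries. Together the 32 took 0.309% ± 0.0510 of the signal at day 15 and 0.0841% ± 0.0163 at day 5 (SD, n = 4 each), a gap that the same choice favours. For 5 of them all 4 day 15 libraries were at 10 or more and no day 5 library was; these passed the filter through day 15 alone and so had to differ. Over all features tested there were 19 of that kind and 7 of the opposite kind, 0.481% together.

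The features that fell were mostly abundant and moved less. The 36 had a median change of -1.23 on the log2 scale, about 2.35-fold, and ranged from 1.64-fold to 67.2-fold. Of the 36, 27 fell at least 2-fold, 8 at least 4-fold and 5 at least 8-fold. Their group mean had a median of 599 at day 15 and 1418 at day 5. In 22 of them the day 5 mean was 1000 or more, against 952 of all 5405. Choosing features that fell favours high day 5 values. Over all 8 controls the median of their mean log2(value + 1) was 9.70, against 7.56 over all features tested. Per library, the median of the 36 values was 560, 789, 507 and 598 in day 15 replicates 1 to 4, and 1434, 1466, 1445 and 1327 in day 5 replicates 1 to 4. These medians could not overlap between the days, because each of the 36 was chosen on these libraries and separates them. Day 15 replicate 2 was again the nearest to day 5. Together the 36 took 1.44% ± 0.318 of the signal at day 15 and 3.09% ± 0.284 at day 5 (SD, n = 4 each), a gap that the same choice favours. In 2 of the 36 all 4 day 5 libraries were at 10 or more and no day 15 library was. These 2 passed the filter through day 5 alone and so had to differ. They were the 2 largest falls. The 67.2-fold fall was 1 of them, with a mean of 0.351 at day 15 and 112 at day 5. The files mark 2 of the 36 as low in data, and 0 of the 32, against 28 of all 5405 tested.

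**Figure D2:**
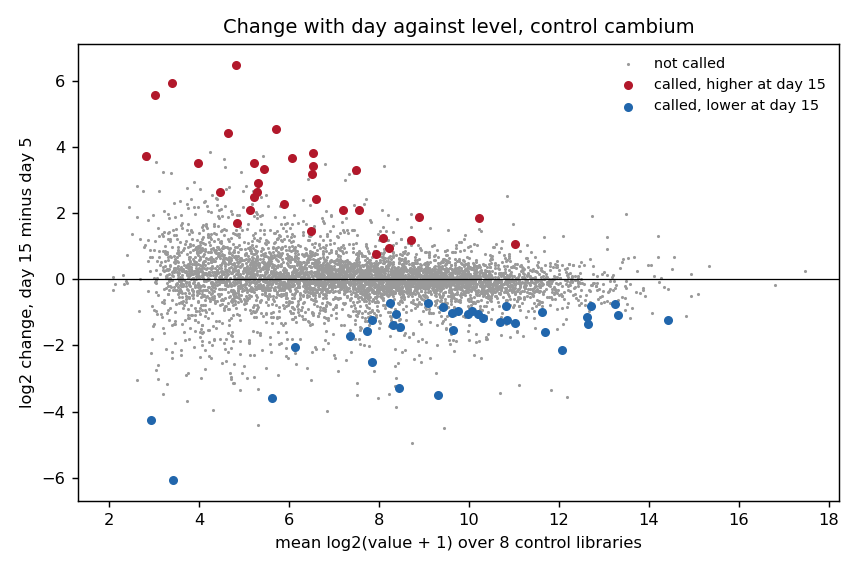
Each point is 1 of the 5405 features, with its mean log2(value + 1) over the 8 controls on the horizontal axis and its log2 change, day 15 minus day 5, on the vertical axis. Called features that were higher at day 15 (red, 32) lie mostly at low to middle levels and those that were lower (blue, 36) mostly at high levels.

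Direction went with level over the whole table, not among the called features alone. Features were put into 5 classes by their mean log2(value + 1) over the 8 controls. In the lowest class, under 5 and holding 995 features, 8.04% lay wholly above day 5 at day 15 and 2.81% wholly below. In the class from 5 to 7 (1335 features) the shares were 7.49% and 3.07%, and from 7 to 9 (1517 features) 5.47% and 7.12%. From 9 to 11 (1143 features) they were 4.99% and 12.2%. In the highest class, 11 and over with 415 features, 3.61% lay wholly above and 19.3% wholly below. The shares in the lowest class stand for 80 features above and 28 below. Over all classes, 19 features passed the filter through day 15 alone and 7 through day 5 alone, so these had to separate. Their number in each class was not counted. The median change was lower in each class than in the one before, at 0.16, 0.10, 0.0041, -0.07 and -0.14 on the log2 scale.

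With median-of-ratios and trimmed mean scaling the share wholly below also grew from each class to the next, to 19.8% in the highest. With each of the 8 libraries left out in turn, it was 20.2% to 25.5% in the highest class and 3.22% to 5.53% in the lowest. Without day 5 replicate 1 the share wholly below dipped from 4.02% in the lowest class to 3.97% in the next. Without day 15 replicate 4 it dipped from 4.52% to 4.12%. The share wholly above did not go down with level at every step in these fits. Without day 15 replicate 2 it was 10.6%, 13%, 9.89%, 10.1% and 6.99% from the lowest class to the highest. Without day 5 replicate 4 it was 9.55%, 10.3%, 8.17%, 7.79% and 4.34%. Without day 5 replicate 3 it rose from 6.65% in the class from 9 to 11 to 6.99% in the highest. With each library scaled to its total, the size of both shares moved: in the highest class 6.75% lay wholly above and 12.8% wholly below, in the class from 5 to 7 the shares were 7.57% and 1.95%, and in the lowest class 8.74% and 2.51%. Under that scaling the median change was 0.23 in the lowest class, 0.01 in the class from 9 to 11 and -0.06 in the highest. Features are not independent of each other, and depth and the share taken by the top feature also differ between the libraries, most of all in day 15 replicate 1. Their part in the trend was not tested, beyond the values without that library: 4.34% above and 24.1% below in the highest class, 11.5% and 3.92% in the lowest.

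**Figure D3:**
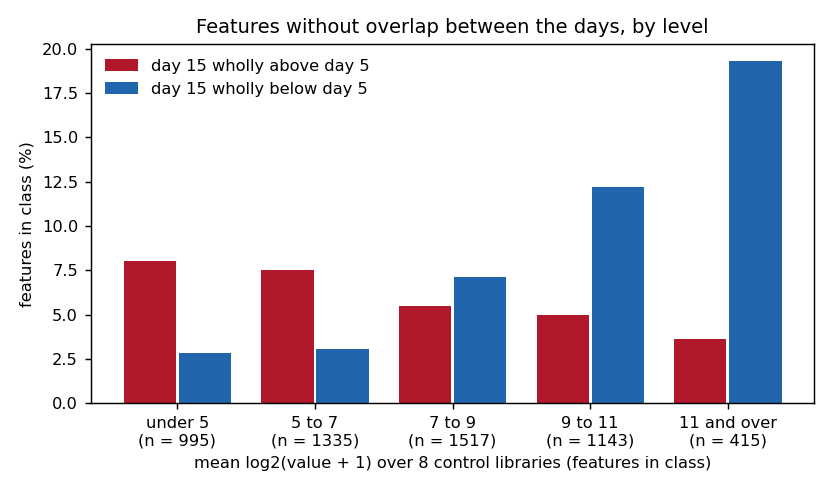
Bars give the percentage of features in each class of mean log2(value + 1) whose 4 day 15 values lie wholly above (red) or wholly below (blue) the 4 day 5 values in controls. The red share is highest in the lowest class, at 8.04%, and the blue share is highest in the highest class, at 19.3%. Features that passed the filter through 1 day alone had to separate and are included.

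The feature with the largest rise of all was PITA_000031465. Its value was 649, 699.7, 26.1 and 423 in day 15 replicates 1 to 4, and 3.23, 1.85, 0 and 5.83 in day 5 replicates 1 to 4. Those values stand for 417, 752, 31 and 504 estimated fragments at day 15, against 4, 2, 0 and 6 at day 5. All day 15 libraries were above all day 5 libraries, with replicate 3 far below the other day 15 values. It is 1 of the 5 features that passed the filter through day 15 alone, so a difference was built into its choice. In log2 it changed by 6.48 (SE 1.08, limma adjusted p = 0.0366), and 7.26, 7.94, 4.76 and 5.96 in numbered pairs 1 to 4. The call held without day 15 replicate 2 (6.02, limma adjusted p = 0.0384) and without day 15 replicate 3 (7.58, limma adjusted p = 0.0147). It was lost without day 15 replicates 1 and 4 and without each of the 4 day 5 libraries, at limma adjusted p-values of 0.066 to 0.101 and log2 changes of 5.95 to 6.88. With voom and library quality weights limma's adjusted p was 0.220, and in the fit of all 16 libraries 0.301.

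PITA_000056712 was the other named feature that rose, and the fourth largest rise of the 32. Its value was 216, 172, 496 and 218 in day 15 replicates 1 to 4, and 20.2, 3.69, 12.6 and 9.72 in day 5 replicates 1 to 4. It averaged 275 ± 148 at day 15 and 11.6 ± 6.86 at day 5 (SD, n = 4 each). Named features were chosen among those without overlap, so the separation of its days was fixed in advance. In log2 it changed by 4.53 (SE 0.51, limma adjusted p = 0.0107), about 23.0-fold, with 3.36, 5.21, 5.19 and 4.35 in numbered pairs 1 to 4. Of the 8 fits that left out 1 library, 7 kept the call. It was lost without day 15 replicate 4, at a log2 change of 4.60 (limma adjusted p = 0.0568), and in the fit of all 16 libraries (limma adjusted p = 0.425).

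PITAhm_000419 had the third largest fall of the 36 and the largest among those with a mean log2(value + 1) of at least 4. Its value was 3.11, 28.8, 25.3 and 11.8 in day 15 replicates 1 to 4, and 99.4, 165, 332 and 153 in day 5 replicates 1 to 4. It averaged 17.3 ± 11.96 at day 15 and 187 ± 100.45 at day 5 (SD, n = 4 each), without overlap, as its choice required. In log2 it changed by -3.58 (SE 0.66, limma adjusted p = 0.0420), about 12-fold, and -4.61, -2.48, -3.66 and -3.59 in numbered pairs 1 to 4. Of the fits that left out 1 library, only the one without day 15 replicate 2 kept the call (-3.94, limma adjusted p = 0.0278). The other 7 gave limma adjusted p-values of 0.0501 to 0.115, and without day 15 replicate 1 the change was -2.99. With each library scaled to its total limma's adjusted p was 0.0531, and in the fit of all 16 libraries 0.175.

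PITAhm_000973, next in size of fall, was the most abundant of the 4 named features at day 5, but not at day 15. Its value was 152, 649, 66.6 and 181 in day 15 replicates 1 to 4, and 2478, 1955, 2747 and 1532 in day 5 replicates 1 to 4. It averaged 262 ± 262 at day 15 and 2178 ± 542 at day 5 (SD, n = 4 each). Day 15 replicate 2 lay between the others of its day and day 5, but still below every day 5 value, as the choice of this feature required. In log2 it changed by -3.51 (SE 0.60, limma adjusted p = 0.0377), about 11.4-fold, and -4.01, -1.59, -5.35 and -3.07 in numbered pairs 1 to 4. With the replicate number as a block the call was lost (limma adjusted p = 0.0550). Without day 15 replicate 2 it was kept (-4.10, limma adjusted p = 0.00713). Without each of the other 7 libraries it was lost, at limma adjusted p-values of 0.066 to 0.110 and log2 changes of -3.66 to -3.02, and in the fit of all 16 libraries limma's adjusted p was 0.265.

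Day 15 replicate 2 was the library nearest to day 5 in most of the called features. It had the lowest day 15 value in 21 of the 32 that rose and the highest in 20 of the 36 that fell, 65.6% and 55.6%. Over all features tested it was the day 15 library nearest to the day 5 side in 36.0%. By numbered pair, the median change of the 32 was 2.79, 2.08, 2.86 and 2.56 for pairs 1 to 4, and that of the 36 was -1.47, -0.89, -1.42 and -1.07. Pair 2 thus had the smallest median of both lists. Over all features the median size of change was 0.553, 0.344, 0.495 and 0.348 for pairs 1 to 4, so pairs 2 and 4 moved least in general.

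Identifiers fall into 3 classes in the files, and the calls were spread over them. Of 3671 tested features whose identifier begins with PITA_, 25 were called higher and 23 lower (1.31% together). Of 1309 that begin with PITAhm_, 6 were higher and 11 lower (1.30%). Of 425 with a transcript name, 1 was higher and 2 lower (0.706%), and this class had the lowest level, with a median mean log2 value of 5.98 against 7.66 and 7.80. The shares were not tested against each other.

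The paste libraries, which the control comparison did not use, gave values for the same features between the same days. In paste trees 0 of the 5405 features passed between day 15 and day 5 (0%; limma, smallest adjusted p = 0.949), against 64 at an unadjusted p below 0.05 (1.18%) and 39 without overlap (0.722%). Without paste day 15 replicate 3 the count at an unadjusted p below 0.05 was 975, and over the 8 fits that left out 1 paste library it was 16 to 975. Features without overlap in the direction of the controls were 29 with all paste libraries (0.537%) and 641 without paste day 15 replicate 3 (11.9%), where fewer libraries also make such a separation easier. Of the 32 features that rose in controls, 31 also had a positive estimate in paste trees, with a median of 1.56 on the log2 scale. Of the 36 that fell, 35 had a negative one, with a median of -0.84. Over all features 74.5% had the same sign in paste as in controls, 52.5% had a positive paste change, and the median paste change was 0.02. The wider sets without overlap in controls, which hold these lists, had the same sign in 94.3% (higher) and 94.5% (lower). The log2 changes in paste and in control, which share no library, correlated across the 5405 features at 0.655 (Pearson) and 0.654 (Spearman), a description over features that are not independent. In 31 of the 32 and 35 of the 36 the paste change was the smaller one, against 2885 of all 5405 features. Choosing the lists on the control values favours such a gap.

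**Figure D4:**
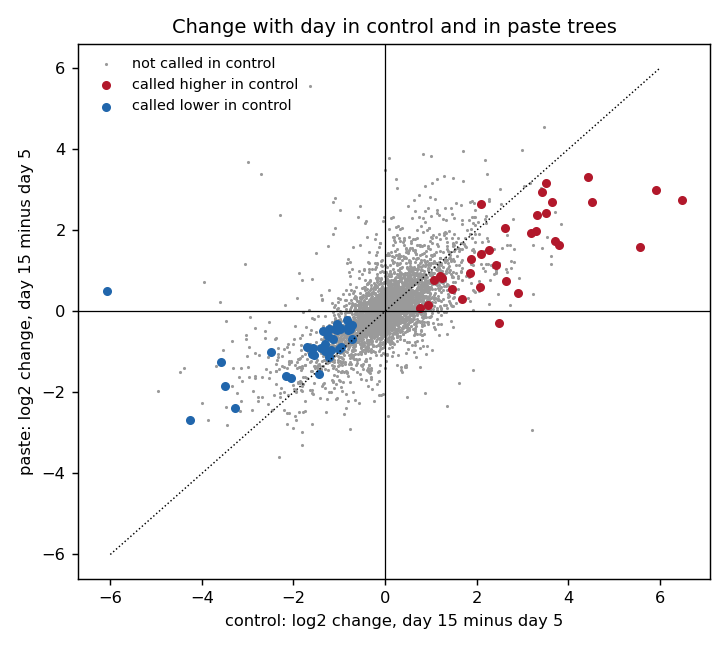
Each point is 1 of the 5405 features, with its log2 change from day 5 to day 15 in controls on the horizontal axis and in paste trees on the vertical axis; red and blue mark the 32 and 36 features called in controls and the dotted line marks equal change. Of the called features 31 and 35 lie on the same side of 0 in both treatments, most of them nearer to 0 in paste.

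Paste libraries of 1 group differed widely in these lists. The median value of the 32 was 145, 261, 10.7 and 198 in paste day 15 replicates 1 to 4, and 172, 14.4, 87.1 and 12.1 in paste day 5 replicates 1 to 4. Paste day 15 replicate 3 and paste day 5 replicates 2 and 4 were thus below the control day 5 level, while the other 5 were well above it. For the 36 the median was 764, 610.0, 1817 and 510 in paste day 15 replicates 1 to 4, and 707, 2218, 1083 and 2257 in paste day 5 replicates 1 to 4. The same 3 paste libraries held the highest values there.

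Some of these libraries stand apart from their labels. Replicate 1 of paste day 15 closely matched replicate 1 of paste day 5: the median squared difference in their fragments was 1.71 times what counting noise gives. Among the 28 pairs of control libraries that ratio was 10.8 to 39.6, so no control library was counted as a copy of another. With both near-identical libraries left out, the median paste change was 2.06 for the 32 and -1.11 for the 36, with 31 and 36 on the side of the controls. With paste day 15 replicate 3 left out instead, the medians were 2.34 and -1.20. With all 3 left out, a setting chosen after seeing the data that leaves 2 paste libraries of day 15 and 3 of day 5, the medians were 3.18 and -1.64, larger than the 2.63 and -1.23 of the controls. Which median is the smaller thus depends on which paste libraries are kept. Paste day 15 replicate 3 was nearest to paste day 5 replicates 2 and 4, at ratios of 13.8 and 19.7. Its ratios to paste day 5 replicates 1 and 3 were 65.9 and 50.4. Leaving it out itself favours a change in these lists.

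**Figure D5:**
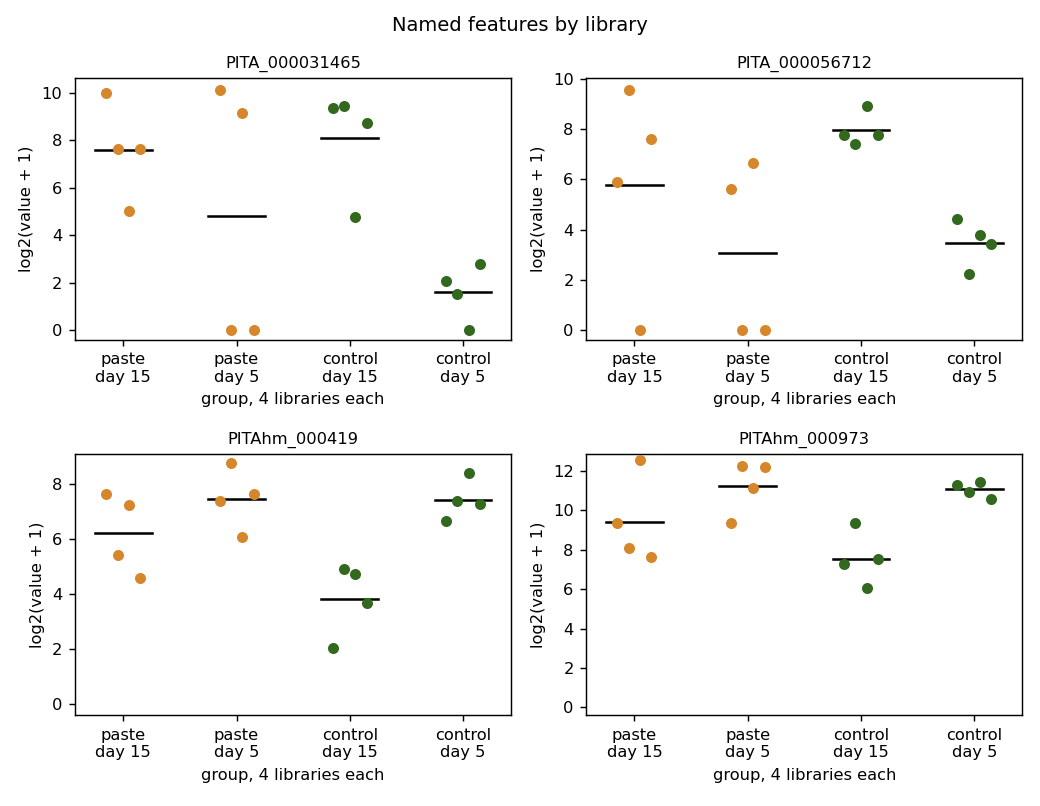
Points give log2(value + 1) of the 4 named features in each of the 16 libraries, replicates 1 to 4 from left to right within a group, for paste (orange) and control (green) at day 15 and day 5, and lines give group means. The 4 were chosen among features whose days do not overlap in controls, so that separation was fixed in advance. In paste trees the days overlap for all 4, as they do for most features: only 0.722% of all tested had no overlap there.

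The 4 named features also varied widely among the paste libraries. PITA_000031465 was at 999.8, 197, 31.5 and 199 in paste day 15 replicates 1 to 4, and at 1088, 0, 567 and 0 in paste day 5 replicates 1 to 4. PITA_000056712 was at 58.6, 754, 0 and 198 in paste day 15 replicates 1 to 4, and at 47.5, 0, 101 and 0 in paste day 5 replicates 1 to 4. Both features were thus listed at 0 in paste day 5 replicates 2 and 4, and above every day 5 control in paste day 5 replicates 1 and 3. PITAhm_000419 was at 198, 41.9, 147 and 22.7 in paste day 15 replicates 1 to 4, and at 164, 424, 65.9 and 198 in paste day 5 replicates 1 to 4. PITAhm_000973 was at 647, 266, 5879 and 197 in paste day 15 replicates 1 to 4, and at 645, 4926, 2223 and 4668 in paste day 5 replicates 1 to 4. None of the 4 separated the days in paste trees, where only 0.722% of all features tested did. The limma adjusted p in paste trees was 0.949 for each of the 4.

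Whether the change with day differed between paste and control trees was tested directly in a fit of all 16 libraries. No feature passed (0 of 5405, 0%; limma, smallest adjusted p = 0.9998), while 56 were at an unadjusted p below 0.05 (1.04%). The paste change minus the control change in log2 was -3.73 for PITA_000031465 (SE 2.96, limma adjusted p = 0.9998) and -1.82 for PITA_000056712 (SE 2.57, limma adjusted p = 0.9998). For PITAhm_000419 that difference was 2.35 (SE 1.10, limma adjusted p = 0.9998), and for PITAhm_000973 it was 1.67 (SE 1.36, limma adjusted p = 0.9998). The standard errors are large, so the count of 0 does not show that paste and control trees changed alike.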

How the data were processed

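Values enter as deposited, in the unit signal; per the file headers each feature has a count estimate with a variance and a status. The scaling by library was read from the values: 96.6% to 97.96% of low ones fell within 0.1 of multiples of a step that differs by library, the rest being fractional. They were therefore not treated as counts, and the planned count models were not run. FastQC, Trimmomatic 0.32, Cufflinks 2.1.1 and HISAT2 2.0.4 are named in the submitters' processing notes, without roles. For build, annotation, strand and multiply mapped reads, nothing is given in the sources used here, so near-identical or overlapping features may share fragments. Libraries were depleted of ribosomal RNA and sequenced single-end, per the labels' protocols.

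A linear model was fitted to log2(value + 1) of the 8 control libraries with limma 3.58.1 in R 4.3.3 (intensity trend, robust variances, 6 residual degrees of freedom), two-sided, Benjamini-Hochberg adjusted over 5405 features. Changes are day 15 minus day 5 on that scale, so that changes of scarce features are understated. The paste comparison and the test of the difference used the same features. The fit was tested on simulated data. The features, comparison and tests were chosen with earlier results of these data known.

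Named features were the 2 largest rises and falls among called features without overlap, with a mean log2 value of at least 4 and no low-data status. Gene lists by description could not be run. Numbers were taken to pair the controls because deviations from the day means correlated at over 0.1 for every number. For numbers 1 to 4 the correlations were 0.249, 0.550, 0.284 and 0.270. Control libraries with unlike numbers gave -0.343 to 0.113, so a few of these also passed 0.1, but all lay below the same-number values. The paste libraries gave 0.583, -0.297, -0.251 and -0.328 for numbers 1 to 4 and were not taken as paired. The labels call the libraries biological replicates without tying them to trees, so p-values measure the spread between these libraries.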

Additional observations from a re-analysis of the deposited data

Results flagged for a closer look

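Among 30 groups of 4 values examined, 3 had a value set far apart from the remaining 3. For independent groups of normally distributed values, about 1 in 20 would be flagged. The 30 groups share libraries and hold untransformed values, so that rate need not apply. By depth, control day 15 replicate 1 was such a library, with 3323970 estimated fragments; the remaining day 15 controls had 4547880 to 4798510. For PITA_000056712, control day 15 replicate 3 had a value of 495.653, above the 172 to 218 of the remaining day 15 controls. For PITAhm_000973, paste day 15 replicate 3 had a value of 5878.97, above the 197 to 647 of the remaining paste day 15 libraries. No cause was tested for any of them.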

How the results depend on the processing

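The 68 calls between day 15 and day 5 in controls became 219 with library quality weights, 151 with voom and library quality weights, 16 with no trend and no robust variances, and 0 in the fit of all 16 libraries; the causes were not tested. Leaving out 1 library in turn gave 5 to 252, and leaving out both day 15 replicates 1 and 2, chosen after seeing the data, gave 44. With pseudocounts of 0.5 and 4, other scalings, other filters and the replicate block the count was 54 to 75. The lists changed more than the count: 27 of the 68 were kept with the block and 41 with each library scaled to its total. All 68 kept their sign in every fit that tested them. The replicate block gave 56 calls and, of the named features, ended the call of PITAhm_000973 alone; in the paste comparison and the test of the difference it left 0 calls. The paste count was 0 to 1 and that of the difference 0 to 0 over the fits that left out 1 library, and both were 0 without the near-identical pair. The named features kept their direction in every alternative, and their calls in 11 of 21, 19 of 21, 10 of 21 and 12 of 22 (PITA_000031465, PITA_000056712, PITAhm_000419 and PITAhm_000973). Count models were not run, because the values are not counts. At 4 libraries a day, a missed threshold does not show that a feature did not change.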
